A study of Bos taurus with 9 samples.

Results

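The loci described here are the bovine members of the miR-15, miR-16, miR-195 and miR-497 family, together with their relatives miR-103 and miR-107. They were taken by name from the known and homologous miRNA listed for this study (bta-miR-15a, bta-miR-15b, bta-miR-16a, bta-miR-16b, bta-miR-103, bta-miR-107, bta-miR-195 and bta-miR-497, with any arm), whatever their values. The 8 names gave 9 loci, since bta-miR-103 is listed at 2 loci, of 249 known and homologous miRNA loci and 101889 deposited loci in all. Small RNA was sequenced from extracellular vesicles (EVs) of bovine follicular fluid to compare antral follicles of 3 sizes. There were 3 samples from small (3–5 mm), 3 from medium (6–9 mm) and 3 from large (>9 mm) follicles of cow ovaries. Each sample was 1 pool of fluid from many follicles, with no treatment and no other agent in any group. Healthy and atretic follicles and the animals behind a pool are therefore mixed, and p-values measure the spread between pools. In such bulk samples, fewer vesicles that carry a miRNA and less of it per vesicle cannot be told apart. The methods describe 3 collections that each gave fluid of every size, but which samples share a collection was not given in the sources used here, so that no fit could account for it.

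miRNAs are short RNAs that guide silencing complexes to messenger RNAs, mainly through a seed near their 5′ end. miR-15a, miR-15b, miR-16a, miR-16b, miR-195 and miR-497 share a seed and are known to lower cyclins and other genes of the G1 to S step of the cell cycle, and the anti-apoptotic protein BCL2. miR-103 and miR-107 have a closely related seed, lie in introns of pantothenate kinase genes and are known for roles in lipid and glucose metabolism and for targeting the miRNA-processing enzyme Dicer. In the growing follicle, granulosa cells proliferate and then differentiate, and both somatic cells and the oocyte are bathed in the fluid from which these vesicles came.

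Positions are those of the UMD3.1 build. The miR-15a/16a pair lies on chromosome 12, with bta-miR-16a at chr12:19596254-19596275 and bta-miR-15a at chr12:19596395-19596415, 120 bases apart. The miR-15b/16b pair lies on chromosome 1, with bta-miR-16b at chr1:107923291-107923312 and bta-miR-15b at chr1:107923436-107923457, 124 bases apart. The third cluster is on chromosome 19, where bta-miR-195 (chr19:27441394-27441415) and bta-miR-497 (chr19:27441719-27441740) are 304 bases apart. bta-miR-103 was listed at chr13:51742433-51742450 and chr20:189866-189883, and bta-miR-107 at chr26:11288008-11288025. All 9 loci are on the minus strand, as are 113 of the 249 known and homologous loci. In the RefSeq gene table, whose assembly differs from that of the files and which was used for names only, the miR-15b and miR-16b genes lie within SMC4, a condensin subunit gene. The miR-15a and miR-16a genes lie within the transcribed pseudogene LOC100847818, and those of miR-195 and miR-497 within the long noncoding RNA gene LOC107131510. The genes of miR-103 on chromosomes 20 and 13 and of miR-107 lie within PANK3, PANK2 and PANK1, which encode pantothenate kinases.

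Summed counts per sample ranged from 8941598 to 14664460. In small follicles known and homologous miRNA took 14.1% to 26.9% of them, in medium follicles 3.75% to 11.2%, and in large ones 1.43% to 5.65%. Large replicates 10 and 11 stood apart with 154101 and 146617 miRNA counts, against 660594 in large replicate 12. Counts were therefore normalized within the miRNA set (TMM, on the CPM scale of the set), so that values below are levels relative to the other miRNAs. The summed level of 6 blood cell miRNAs (bta-miR-451, bta-miR-486, bta-miR-142-5p, bta-miR-150, bta-miR-155 and bta-miR-146a) was 1287 to 3984 in small follicles. It was 2321 to 4135 in medium and 7378 to 18729 in large ones, and their part in the results was not tested. By edgeR's quasi-likelihood test with Benjamini-Hochberg adjustment, 3 of the 6 rose and 0 fell from small to large follicles. Among all 249 known and homologous loci, 44 rose and 61 fell in this comparison. miR-202, which is enriched in the gonads, was present at 1895 to 5229 in all 9 samples. The endothelial miR-126-5p was at 56.8 to 458, with its highest value in a large follicle sample. The 3 epithelial miRNAs (bta-miR-141, bta-miR-200a and bta-miR-429) summed to 51.3 to 521, and 1 of them (bta-miR-429) fell from small to large follicles.

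The 9 loci together took 0.912% ± 0.368 of the counts on all deposited loci in small follicles (SD, n = 3). They took 0.207% ± 0.113 in medium follicles and 0.0699% ± 0.0655 in large ones. The individual shares were 0.934%, 0.533% and 1.27% in small, 0.153%, 0.131% and 0.336% in medium, and 0.0323%, 0.0319% and 0.146% in large follicle samples. Every small follicle sample was above every other sample, while the medium and large ranges overlapped. As a share of the miRNA counts alone, the loci took 4.18% ± 0.482 in small follicles, 3.48% ± 0.476 in medium ones and 2.28% ± 0.272 in large ones, a smaller decline than over all counts. No test was made of these sums.

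Levels per base of the counted locus set the members in an order that differed between follicle sizes. In small follicles, both bta-miR-103 loci (474 and 473 normalized counts per base), bta-miR-107 (446) and bta-miR-16b (366) were the most abundant, and neighbours in this order had overlapping samples. bta-miR-16a (154) was separate from bta-miR-16b above it and from bta-miR-497 (125) below it. bta-miR-195 (86.8) and bta-miR-15a (73.0) overlapped, and bta-miR-15b was lowest at 24.9. In medium follicles the same 4 loci led, with bta-miR-103 at 348 and 347, bta-miR-107 at 323 and bta-miR-16b at 309, and again overlapped. In large follicles bta-miR-16b came first at 332 normalized counts per base, above bta-miR-103 at 210 and 203 and bta-miR-107 at 141, but every pair of neighbours in that order overlapped. In each size, miR-16 was above miR-15 of the same cluster. The order per base depended in part on locus length, 18 bases for bta-miR-103 and bta-miR-107 and 22 for bta-miR-16b. Without that division, bta-miR-16b was first in medium follicles too, at a mean of 6804, above bta-miR-103 (6271 and 6254) and bta-miR-107 (5822). In small follicles it was then at 8046, beside 8028 for bta-miR-107 and 8534 and 8512 for bta-miR-103. The bta-miR-103 and bta-miR-107 loci may share reads. The order is therefore one of loci and not of miRNAs, and each bta-miR-103 locus may hold only part of its level. With its 2 loci added, bta-miR-103 would be above bta-miR-16b by mean in each size, with or without division by length. Whether its reads were divided between the loci or counted at both is not given.

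**Figure D1:**
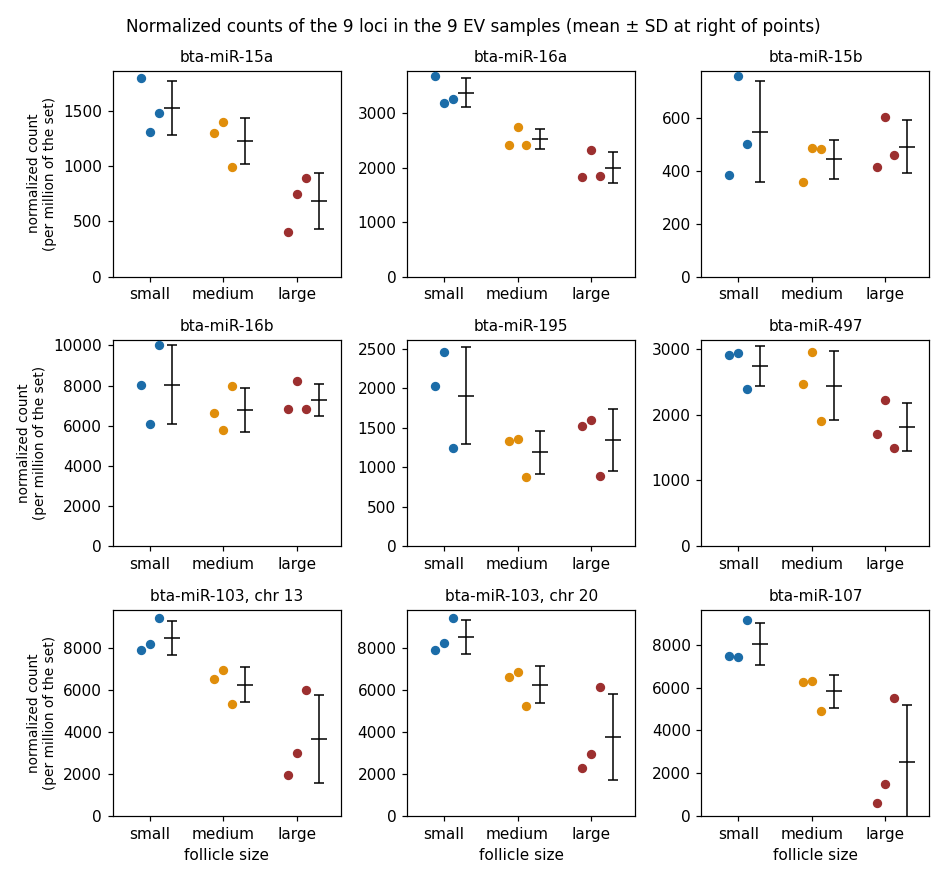
Normalized counts (CPM scale of the miRNA set, linear axis from 0) of the 9 loci in each sample, by follicle size, with the mean ± SD (n = 3) to the right of the points. bta-miR-15a, bta-miR-16a, bta-miR-497, both bta-miR-103 loci and bta-miR-107 were lower in every large than in every small follicle sample. Large replicate 12 was the highest large sample for both bta-miR-103 loci and for bta-miR-107, whose SD bar runs below 0.

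Between large and small follicles, 5 of the 9 loci fell and 0 rose (FDR under 0.05), namely both bta-miR-103 loci, bta-miR-107, bta-miR-15a and bta-miR-16a. Among all 249 known and homologous loci, 42.2% were called in this comparison and 24.5% were called lower in large follicles. Samples of the 2 sizes did not overlap for 6 of the 9 loci, beside 53.0% of all 249 loci. The median log2 fold change of the 9 loci was -0.76, and that of all 249 loci was -0.18. The 3 loci of miR-103 and miR-107 do not count as independent measurements, and with their counts summed 2 of 7 entries were called, both lower. Of the 247 loci in that summed fit, 52 were called higher and 53 lower. Without large replicates 10 and 11, large follicles were 1 sample, assumed to vary like the other sizes. That fit called 0 of the 9 loci and 20.1% of the 249, with log2 fold changes of -0.50 and -0.48 for bta-miR-103, -0.54 for bta-miR-107, -0.77 for bta-miR-15a and -0.87 for bta-miR-16a. Scaled to the total count of every deposited locus instead of the miRNA set, all 9 were called lower, as were 76.7% of the 249 loci, whose median log2 fold change was then -3.06.

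bta-miR-15a, the chromosome 12 member first known for its loss in leukaemia, had normalized counts of 1798, 1315 and 1488 in small, 1300, 1399 and 993 in medium, and 407, 753 and 898 in large follicles. All large follicle samples were below all medium and all small ones, while small and medium overlapped. It fell 2.23-fold from small to large follicles (log2 fold change -1.16, SE 0.35, FDR 0.0223, edgeR quasi-likelihood test with Benjamini-Hochberg adjustment). From medium to large the log2 fold change was -0.84, with a p of 0.0346 before and an FDR of 0.120 after Benjamini-Hochberg adjustment (edgeR). The call between small and large follicles was lost without small replicate 1, small replicate 4, large replicate 10 or large replicate 11, with log2 fold changes between -1.41 and -0.89 over the 9 fits that each left out 1 sample.

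Its cluster partner bta-miR-16a stood at 3687, 3194 and 3275 in small, 2424, 2743 and 2422 in medium, and 1824, 2330 and 1847 in large follicles. The 3 sizes did not overlap, which was so for no other of the 9 loci but also for chi-miR-195-3p, outside them. Among all 249 loci, samples did not overlap for 53.0% in large versus small, 28.5% in medium versus small and 36.1% in large versus medium follicles. No share is given for all 3 sizes at once. bta-miR-16a fell 1.69-fold from small to large follicles (log2 fold change -0.76, SE 0.28, FDR 0.0471, edgeR quasi-likelihood test). The FDR was at the edge of the threshold, and it lay between 0.0564 and 0.139 when any 1 of the 9 samples was left out. From small to medium (-0.42, SE 0.28) and from medium to large (-0.34, SE 0.28) the change did not pass the test.

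bta-miR-16b, the more abundant of the miR-16 forms, had 8035, 6070 and 10033 normalized counts in small, 6617, 5812 and 7985 in medium, and 6821, 8227 and 6836 in large follicles. The 3 sizes overlapped, and the spread was widest in small follicles. The log2 fold change from small to large was -0.14 (95% interval -0.81 to 0.53, FDR 0.744, edgeR), and it became 0.17 without small replicate 4. Its partner bta-miR-15b was the least abundant member, at 385, 758 and 500 in small, 359, 485 and 484 in medium, and 413, 604 and 458 in large follicles. These too overlapped, with a log2 fold change from small to large of -0.16 (95% interval -0.92 to 0.61, FDR 0.748, edgeR), which became 0.15 without small replicate 2.

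bta-miR-195 and bta-miR-497, the chromosome 19 pair known to restrain proliferation in several tissues, did not pass the test in any comparison. bta-miR-195 was at 2032, 2456 and 1241 in small, 1333, 1355 and 881 in medium, and 1528, 1606 and 890 in large follicles. Samples of the 3 sizes overlapped, and in each size 1 sample (replicates 4, 8 and 12) was clearly below the other 2. These 3 samples also had the highest share of counts on miRNA within their size, and whether they share a collection is not given. bta-miR-497 was at 2907, 2931 and 2392 in small, 2470, 2950 and 1907 in medium, and 1712, 2217 and 1498 in large follicles. Every large sample of bta-miR-497 was below every small one, and medium overlapped both. From small to large follicles the log2 fold change was -0.51 for bta-miR-195 (95% interval -1.31 to 0.29, FDR 0.270) and -0.60 for bta-miR-497 (95% interval -1.27 to 0.07, FDR 0.137, edgeR quasi-likelihood test).

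The bta-miR-103 locus on chromosome 13 had 7911, 8193 and 9432 normalized counts in small, 6523, 6969 and 5321 in medium, and 1963, 2991 and 6021 in large follicles. The locus on chromosome 20 had 7913, 8250 and 9437 in small, 6637, 6880 and 5245 in medium, and 2287, 2941 and 6129 in large follicles. At both loci all small samples were above all others, and large replicate 12 lay within the range of the medium samples. From small to large follicles they fell 2.32-fold (log2 fold change -1.22, SE 0.40) and 2.25-fold (-1.17, SE 0.38), each with an FDR of 0.0289 by edgeR's quasi-likelihood test. Without large replicate 12 the log2 fold changes were -1.78 and -1.71, and without small replicate 1, small replicate 4, large replicate 10 or large replicate 11 neither passed the threshold.

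bta-miR-107 had 7472, 7443 and 9168 normalized counts in small, 6243, 6315 and 4908 in medium, and 586, 1513 and 5529 in large follicles. The values in large replicates 10 and 11 were far below the rest, while large replicate 12 was again within the medium range. The fall from small to large follicles was 3.14-fold (log2 fold change -1.65, SE 0.61, FDR 0.0471, edgeR), and it was called in 1 of the 9 fits that left out a sample, the one without large replicate 12 (log2 fold change -2.94). With the counts of the bta-miR-103 and bta-miR-107 loci summed, the log2 fold change was -1.24 (FDR 0.0337, edgeR).

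**Figure D2:**
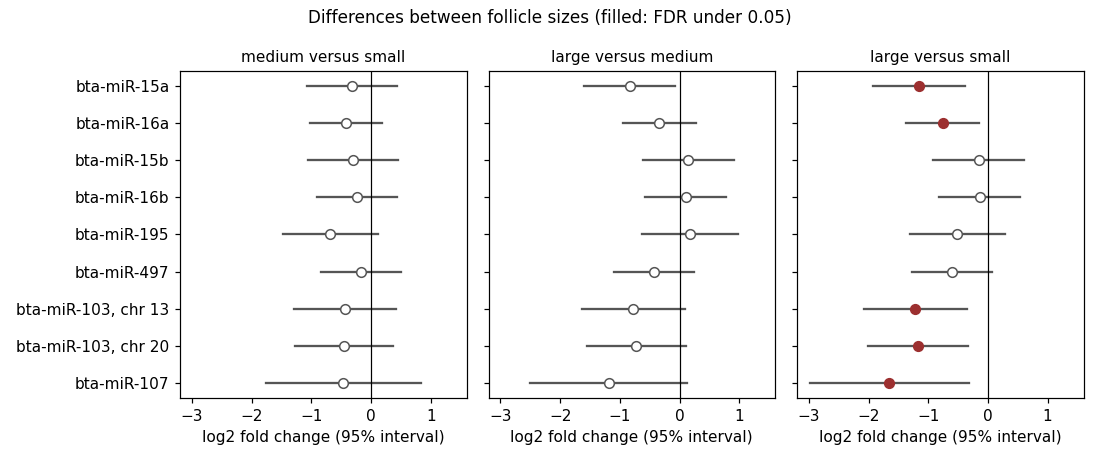
Log2 fold changes of the 9 loci with 95% intervals (horizontal axis) in the 3 comparisons of follicle size, from 1 edgeR fit of all 9 samples, with filled points for calls at the 0.05 threshold. In the panel of large versus small follicles 5 intervals lie wholly below 0, those of bta-miR-15b and bta-miR-16b are centred near 0, and no point is filled in the other comparisons.

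In medium versus small follicles 0 of the 9 loci were called by edgeR's quasi-likelihood test, as were 0.0% of all 249 loci. None of the 9 had an unadjusted p under 0.05, against 44 of the 249, and both edgeR's exact test and DESeq2 called 0 of the 9, beside 6.43% and 11.2% of the 249. All 9 log2 fold changes were below 0, from -0.17 for bta-miR-497 to -0.68 for bta-miR-195, with a median of -0.42 beside -0.17 for all 249 loci. bta-miR-16b and bta-miR-15b were above 0 when small replicate 4 or small replicate 2, in that order, was left out. Samples did not overlap for 4 of the 9 loci (bta-miR-16a, bta-miR-107 and both bta-miR-103 loci), beside 28.5% of all 249.

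In large versus medium follicles, edgeR's quasi-likelihood test called 0 of the 9 loci and 10.4% of all 249. An unadjusted p under 0.05 was found for 1 of the 9 (bta-miR-15a) and 80 of the 249. edgeR's exact test called 0 of the 9 and 20.9% of the 249. DESeq2 called bta-miR-15a (log2 fold change -0.88, FDR 0.0493) and 25.3% of the 249. Samples did not overlap for 2 of the 9 loci, bta-miR-15a and bta-miR-16a, beside 36.1% of all 249. The values for bta-miR-103 (-0.77 and -0.72) and bta-miR-107 (-1.19) depended on large replicate 12, without which these 3 loci were called, at -1.34, -1.26 and -2.48. Of the 249 loci, 6 were called higher and 15 lower in that fit, and the 3 loci may share reads. The 3 comparisons share samples and are given side by side.

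A ratio of 2 counts within a sample does not depend on the scaling between samples, and 5 such ratios were tested for a trend over the sizes by an exact permutation test (two-sided, n = 9, smallest possible p 0.00119). None passed after adjustment over the 5. The chromosome 12 and chromosome 1 forms of miR-16 have near-identical mature sequences from separate precursors, so that reads could have been divided between them. bta-miR-16a counts were 32.6% to 52.6% of bta-miR-16b counts in small follicles, 30.3% to 47.2% in medium ones and 26.7% to 28.3% in large ones. All 3 large samples lay below all other samples, and their spread was narrow (log2 ratio -1.87 ± 0.04, against -1.42 ± 0.32 in medium and -1.22 ± 0.35 in small, SD, n = 3). The slope was -0.32 log2 units per size step (exact permutation p 0.0274, adjusted p 0.0685), and with 1 sample left out it ranged from -0.42 to -0.27. In these 9 exact permutation tests the adjusted p was 0.0357 without small replicate 4 and 0.0536 to 0.167 in the other 8.

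Within the chromosome 12 cluster, bta-miR-15a counts were 41.2% to 48.8% of bta-miR-16a counts in small follicles, 41.0% to 53.6% in medium ones and 22.3% to 48.7% in large ones. Large replicates 10 and 11 were the lowest of the 9 samples, whereas large replicate 12 lay among the small and medium samples. The slope was -0.23 log2 units per size step (exact permutation p 0.170, adjusted p 0.284), and it was -0.0768 without large replicate 10. bta-miR-15b counts were 4.79% to 12.5% of bta-miR-16b counts in small and 6.05% to 7.34% in large follicles, with no slope to 2 decimals (exact permutation p 0.995). bta-miR-195 counts were 51.9% to 83.8% of bta-miR-497 counts in small follicles, 45.9% to 54.0% in medium ones and 59.4% to 89.3% in large ones, with the lowest mean in medium (slope 0.06, exact permutation p 0.711, adjusted p 0.888).

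**Figure D3:**
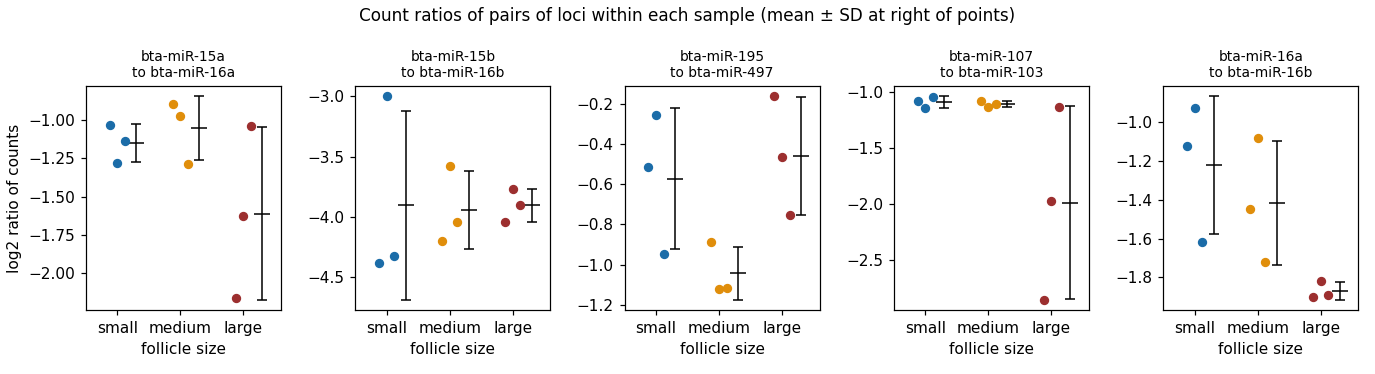
Log2 ratio of the counts of 5 pairs of loci (vertical axes, not from 0) in each sample by follicle size, with the mean ± SD (n = 3) to the right of the points. bta-miR-16a to bta-miR-16b is lowest and tightest in large follicles (-1.87 ± 0.04), and bta-miR-107 to bta-miR-103 is low only in large replicates 10 and 11.

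The bta-miR-103 and bta-miR-107 loci were counted over 18 bases each. Of the 249 loci 4 have this length, and 3 of them are these. The methods do not say where a read with several equal matches was counted, and the counts of the 3 loci cannot be taken as separate. In 8 samples the bta-miR-103 loci differed by at most 1.79%, and in large replicate 10 by 16.5% (352 and 410 counts). bta-miR-107 held 31.2% to 32.7% of the counts of the 3 loci in 7 samples, close to the 33.3% of an equal split. It held 12.1% (105 of 867 counts, 95% exact binomial interval 10.0% to 14.5%) in large replicate 10 and 20.3% (213 of 1048 counts, 17.9% to 22.9%) in large replicate 11. These are counting intervals alone, and they lie wholly below those of the other samples, including large replicate 12 (31.3%, 30.4% to 32.2%). The slope of the log2 ratio of bta-miR-107 to bta-miR-103 was -0.45 per size step (exact permutation p 0.0274, adjusted p 0.0685), and it was -0.22 without large replicate 10.

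**Figure D4:**
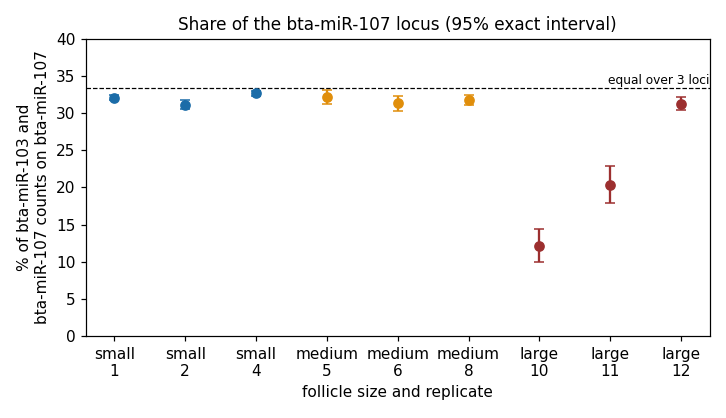
Share of the counts of the bta-miR-103 and bta-miR-107 loci that fell on bta-miR-107 (percent, axis from 0) in each sample, with 95% exact binomial intervals and a dashed line at the equal share of 33.3%. 7 samples sit between 31.2% and 32.7%, and large replicates 10 and 11 at 12.1% and 20.3%.

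The other arm of the miR-195 hairpin is listed by homology as chi-miR-195-3p, 17 bases from bta-miR-195, and it did not follow it. Its normalized counts were 204, 175 and 199 in small, 310, 431 and 435 in medium, and 474, 519 and 534 in large follicles. The 3 sizes did not overlap, and chi-miR-195-3p rose from small to large follicles (log2 fold change 1.40, SE 0.31, FDR 0.0055, edgeR quasi-likelihood test). Per 100 counts of bta-miR-195 there were 11.1 ± 4.57 of chi-miR-195-3p in small follicles, 34.8 ± 13.3 in medium ones and 41.1 ± 16.4 in large ones (SD, n = 3), with replicates 4, 8 and 12 the highest of their size. bta-miR-424-5p, which shares the seed of the family and lies outside the 8 names, was at 245, 398 and 120 in small, 266, 421 and 146 in medium, and 368, 199 and 115 in large follicles. These overlapped (large versus small log2 fold change -0.18, FDR 0.831, edgeR). The opposite arm bta-miR-424-3p rose from 137, 75.8 and 146 in small to 820, 789 and 906 in large follicles, with 336, 194 and 421 in medium. Its log2 fold change from small to large was 2.80 (SE 0.40, FDR 0.00060, edgeR), and it reached 469 ± 289 per 100 counts of bta-miR-424-5p in large follicles, against 65.7 ± 52.3 in small. In both hairpins the arm that carries the family seed did not pass the test while the opposite arm did, and the difference between arms was not tested. Loci outside the counted arm of other member hairpins did not all rise in this way. From small to large follicles, such a locus went from 6.37% to 4.55% of bta-miR-15b counts and from 0.194% to 0.0480% of bta-miR-16b counts. For bta-miR-497 it went from 0.765% to 1.02%. In large follicles these loci held 19, 3 and 15 counts, in that order.

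**Figure D5:**
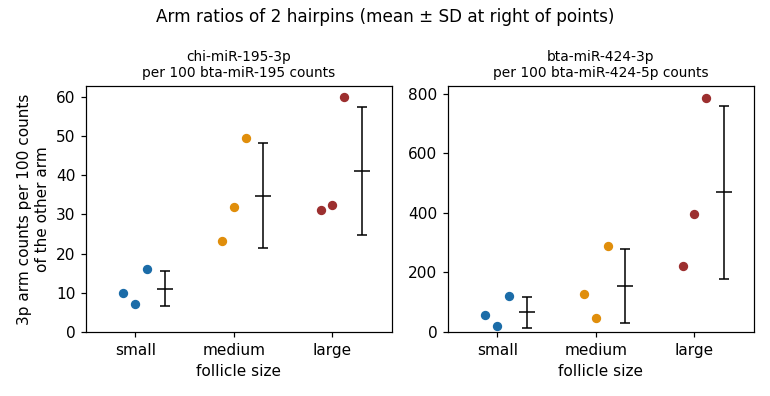
Counts of the 3p arm per 100 counts of the other arm (axis from 0) for the miR-195 and miR-424 hairpins in each sample by follicle size, with the mean ± SD (n = 3) to the right of the points. For miR-195, all small samples (7.11 to 16.1) lie below all medium and large samples (23.2 to 60.0).

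Across the 9 samples, likeness of log2 normalized counts between loci is given as a description, and the loci of a sample share its library and depth. bta-miR-15a and bta-miR-107 were alike (Pearson's r 0.94, n = 9 samples), and among loci other than the 9, bta-miR-190b and bta-miR-29a were 2 of the 3 most like each of them (r 0.97 and 0.96 for both, n = 9). The other was ssc-miR-148b-5p for bta-miR-15a (r 0.98, n = 9) and chi-miR-3431-3p for bta-miR-107 (r 0.95, n = 9). bta-miR-107 was more like the bta-miR-103 loci on chromosomes 13 and 20 (r 0.99 and 0.98, n = 9), whose reads it may share. bta-miR-15a, bta-miR-107 and both bta-miR-103 loci were lowest in large replicates 10 and 11. There bta-miR-107 was at 586 and 1513, against 4908 to 9168 elsewhere, and r without these 2 samples was not computed. Outside the 9 loci, bta-miR-16b was most like bta-miR-202 (r 0.81), bta-miR-193b (r 0.81) and bta-miR-25 (r 0.80), and showed little likeness to its partner bta-miR-15b (r -0.08) or to bta-miR-16a (r 0.27, all n = 9). bta-miR-195 was most like bta-miR-26b (r 0.94, n = 9) and then the 2 bta-miR-101 loci (r 0.87 and 0.85). Its likeness to bta-miR-497 was lower (r 0.68), while bta-miR-15a and bta-miR-16a had an r of 0.84 over the same samples.

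Other miRNAs known to act on the cell cycle give the setting of these values. Of 18 loci of let-7, miR-98, miR-34, miR-449a and miR-26, which restrain it, 0 rose and 1 fell from small to large follicles (bta-miR-449a, log2 fold change -3.17, FDR 0.0101, edgeR), with a median of 0.07. Of 14 loci of the miR-17, miR-25, miR-221 and miR-21 groups, which favour it, 1 rose and 6 fell, with a median log2 fold change of -1.10. bta-miR-19a had the lowest p (-3.86, FDR 0.00060, edgeR), followed by the bta-miR-19b loci (-2.66 and -2.61). Of all 249 loci, 44 rose and 61 fell. The members described here had a median of -0.76, between those of the lists, beside -0.18 for all 249 loci. It counts the bta-miR-103 and bta-miR-107 loci, which may share reads, as 3 entries. The other members were at -1.16 (bta-miR-15a), -0.76 (bta-miR-16a), -0.60 (bta-miR-497), -0.51 (bta-miR-195), -0.16 (bta-miR-15b) and -0.14 (bta-miR-16b). The medians carry no test.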

How the data were processed

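The authors trimmed adapters and aligned reads to UMD3.1 with bwa (version 0.7.5a in the submitters' processing notes). They merged alignments of all samples into loci and deposited raw, unnormalized counts over the well covered bases of a locus. The 9 loci, the lists of other miRNAs and the tests were chosen with earlier results of these data known.

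Groups were the follicle sizes of the labels. In R 4.3.3 with edgeR 4.0.16, the 249 known and homologous loci were normalized by TMM and fitted in 1 model of the 3 sizes. Pairs of sizes were compared by its quasi-likelihood test (two-sided), with Benjamini-Hochberg adjustment over the 249 loci and a threshold of 0.05 (FDR). All 9 loci passed into the fit, where no further filter on low counts was used. The study had already listed only loci with a mean of at least 100 reads in any of the 3 sizes. Shares of the 249 loci given above therefore cover loci that passed that filter. miRNA counts were highest in small follicles, and through which size each locus passed was not examined. Summed counts per sample ranged from 8941598 to 14664460. A share of 3 counts of the total, set as a floor for counting error only, was 2.05e-05% to 3.36e-05%. Correlations used log2 normalized counts with a prior count of 2. Ratios were tested in Python 3.11.15 with scipy 1.17.1. The procedures were tested on simulated data. No 2 samples of a size agreed within sampling noise.

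Every locus under the 8 names was named, with the other arm of miR-195 and both arms of miR-424. The most similar loci were the 3 outside the members with the highest Pearson's r, and at most 3 loci of a list were named, by lowest p. The alternatives comprised DESeq2 1.42.0, edgeR's exact test, other scalings, a low-count filter, an FDR under 0.1, only the 2 groups compared, summed or single loci per name, and leaving out samples. Leaving out large replicates 10 and 11 together was added after the data were seen. The RefSeq table was used for gene names alone. Sequences, read lengths and target genes were not analysed here.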

Additional observations from a re-analysis of the deposited data

Results flagged for a closer look

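Short loci outside the known and homologous set lay beside 3 of the members on the same chromosome, within 17 to 21 bases, and held counts. The locus beside bta-miR-16b (chr1:107923249-107923270) held 158 counts over the 9 samples, with 0 in large replicates 10 and 11. The locus beside bta-miR-15b (chr1:107923398-107923419) held 299 counts, also with 0 in these samples. The locus beside bta-miR-497 (chr19:27441679-27441701) held 190 counts, of which 15 were in large follicles. By follicle size, they held 0.0480% to 0.237% of the counts of bta-miR-16b, 4.55% to 6.37% of those of bta-miR-15b and 0.530% to 1.02% of those of bta-miR-497. All 3 lie on the same strand as the member, within the stem loop that the study's supplement gives for it and outside the counted arm. They are listed because they hold signal outside the loci compared, and no test was made.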

How the results depend on the processing

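In large versus small follicles the number of the 9 loci called lower stayed between 4 and 5 with edgeR's exact test, DESeq2, DESeq2 size factors, the total count of the set, filterByExpr and an FDR under 0.1. Those settings called 58 to 66 of the 249 loci lower. The number was 9 when scaled to every deposited locus, by total count or by TMM. These 2 scalings called 191 and 232 of the 249 loci lower and moved the median log2 fold change of the 249 to -3.06 and -4.71. With only the 2 groups compared, 3 of the 9 were called lower, beside 52 of the 249 loci. With bta-miR-103 and bta-miR-107 summed the number was 2, beside 53 of 247, and with 1 locus per name 2, beside 46 of 225. Leaving out large replicates 10 and 11 left 1 large sample, with a spread taken from the other sizes. The 5 loci called in the main fit were then at log2 fold changes of -0.87 to -0.48. Leaving out any 1 sample called 0 to 4 of the 9 lower, beside 35 to 65 of the 249 loci. In medium versus small follicles the 2 scalings to all deposited loci called 3 and 8, against 0, and called 59 and 109 of the 249 loci lower. In large versus medium follicles DESeq2 called 1 of the 9 lower, beside 32 of the 249 loci. Leaving out 1 sample gave 0 to 3, the 3 being the bta-miR-103 and bta-miR-107 loci without large replicate 12, beside 15 of the 249 called lower. Apart from the scalings, the cause of these changes was not tested.

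Directions turned only where no call was made. Scaled by the total count and by the TMM of every deposited locus, the large versus medium log2 fold changes became -1.17 and -1.74 for bta-miR-195, -1.31 and -2.01 for bta-miR-16b, and -1.21 and -1.89 for bta-miR-15b. With 1 sample left out they lay between -0.0072 and 0.40, -0.0015 and 0.23, and -0.0227 and 0.26. In large versus small follicles the leave-one-out values were -0.31 to 0.17 for bta-miR-16b and -0.36 to 0.15 for bta-miR-15b, and in medium versus small -0.41 to 0.0706 and -0.51 to 0.00186. The slope of bta-miR-15b to bta-miR-16b, near 0, was 0.0057 with 1 added to both counts, had a rank correlation of 0.26, and was -0.11 to 0.21 with 1 sample left out. That of bta-miR-195 to bta-miR-497 was -0.0526 to 0.17, and that of bta-miR-16a to bta-miR-16b was -0.42 to -0.27, with an adjusted p under 0.05 only without small replicate 4. That of bta-miR-15a to bta-miR-16a was -0.34 to -0.0768.

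The share of counts on the 9 loci depended on the denominator. Over the miRNA set it was 4.18%, 3.48% and 2.28% in small, medium and large follicles, and over loci of 18 to 30 bases it was 1.85%, 0.589% and 0.249%. The limits are 3 pools a size, the low miRNA counts of large replicates 10 and 11, and reads that may be shared among the bta-miR-103 and bta-miR-107 loci. No paired analysis was possible because the sizes share no replicate numbers in the labels, and which samples came from the same of the 3 collections is not given.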
